A study of Homo sapiens with 16 samples.

Results

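Replication-dependent histone genes encode the linker histone H1 and the core histones H2A, H2B, H3 and H4 that package newly copied DNA. Members were the rows whose symbol was H1-1 to H1-5 or H2AC, H2BC, H3C or H4C followed by a number, with pseudogenes dropped, and with 10 or more counts in 4 or more of the 16 libraries. Of 60676 gene rows, 69 matched the symbols and 45 were kept: 3 H1 genes (H1-2, H1-4 and H1-5), 11 H2A, 14 H2B, 8 H3 and 9 H4 genes. The other 24 were below the count minimum, and 22 of them never reached 10 counts. All 45 were among the 21810 genes tested. H1-6 and H3-4, relatives whose symbols the rule does not cover, reached at most 101 and 27 counts.

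The cells were LNCaP, an androgen-responsive line from a human prostate adenocarcinoma, either wild type (WT) or carrying a CRISPR-Cas9 double knockout of RB and p53 (DKO). Each was given 50 uM enzalutamide (EZ), an androgen receptor antagonist, or an equal volume of the solvent DMSO, for 6 days. The 4 groups, WT DMSO, WT EZ, DKO DMSO and DKO EZ, had 4 libraries each. The labels do not say whether the DKO cells are 1 clone. Nor do they say how replicates were raised, and p-values therefore cover the variation among these 16 libraries, which may be technical.

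Replication-dependent histone mRNAs are made mainly in S phase and, alone among animal mRNAs of protein-coding genes, usually end in a conserved stem-loop in place of a poly(A) tail. The stem-loop is bound by SLBP, which takes part in processing, export and translation of the mRNA, and transcription at the histone gene clusters depends on NPAT, a substrate of cyclin E and CDK2. RB holds back the E2F factors that drive S phase genes. Libraries here were made from total RNA after removal of ribosomal RNA, so mRNAs without a poly(A) tail could enter them. Some histone genes are also known to give longer, polyadenylated transcripts.

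The stem-loop is shown for 8 members because it is the feature that sets these mRNAs apart. Each sequence was read from the GENCODE v29 transcripts of GRCh38, 5′ to 3′ on the transcript, with 5 bases on either side. Capitals mark the 16-base stem-loop.
H4C16: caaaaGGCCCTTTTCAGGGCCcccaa
H4C5: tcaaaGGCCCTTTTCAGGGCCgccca
H4C9: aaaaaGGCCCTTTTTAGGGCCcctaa
H3C6: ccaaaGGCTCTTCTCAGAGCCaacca
H3C10: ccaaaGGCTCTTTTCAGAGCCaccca
H2AC6: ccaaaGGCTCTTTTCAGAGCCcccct
H2BC4: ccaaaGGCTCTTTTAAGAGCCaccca
H2BC21: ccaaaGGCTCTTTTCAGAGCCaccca
The stem-loop pattern was found in an annotated transcript of 23 of the 45 members, and in 66 of 57133 gene names in the whole transcript file. Within the 23 it took 6 forms. The form of H2AC6 and H2BC21 was shared by 12 H2A, H2B and H3 genes, and that of H4C16 and H4C5 by 5 H4 genes and by no member of another class. The other 22 members had no match to these letters in their annotated transcripts. Many annotated histone transcripts hold only the coding sequence, such as that of H4C1, with 312 exon bases beside a RefSeq span of 402. A stem-loop past the coding sequence could not be found there, so a missing match does not show that a gene lacks one.

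Promoters are shown for 4 genes on which the later results turn: H4C16 and its neighbour H2AJ, H3C2, whose level varied widely between replicates, and H2AC6, whose level varied little. The sequences are the 150 bases before the RefSeq start on GRCh38.p14, 5′ to 3′ on the gene's strand, with matches to the motifs searched in capitals (ATTGG is CCAAT read on the opposite strand).
H4C16 (chr12:14771132-14771281, minus strand): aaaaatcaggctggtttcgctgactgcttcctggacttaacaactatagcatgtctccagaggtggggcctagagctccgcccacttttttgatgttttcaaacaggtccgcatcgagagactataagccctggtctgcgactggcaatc
H2AJ (chr12:14774255-14774404, plus strand): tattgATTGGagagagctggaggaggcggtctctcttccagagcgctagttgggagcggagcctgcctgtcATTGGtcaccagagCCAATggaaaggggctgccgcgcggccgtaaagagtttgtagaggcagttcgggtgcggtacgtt
H3C2 (chr6:26032100-26032249, minus strand): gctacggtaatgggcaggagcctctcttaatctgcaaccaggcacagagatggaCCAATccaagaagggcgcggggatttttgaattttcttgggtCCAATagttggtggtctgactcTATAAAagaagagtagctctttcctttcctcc
H2AC6 (chr6:26124022-26124171, plus strand): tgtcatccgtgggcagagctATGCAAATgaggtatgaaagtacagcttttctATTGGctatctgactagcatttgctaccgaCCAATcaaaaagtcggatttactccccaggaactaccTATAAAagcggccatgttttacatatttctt
The motifs were CCAAT, a common promoter word, the TATA box word TATAAA, the octamer ATGCAAAT and 4 E2F-type words, each on both strands. The E2F-type words were TTTGGCGC and its variants TTTCCCGC together with TTTGCCGC and also TTTCGCGC. No motif holds another, though matches of the 4 words can overlap each other. In windows of 300 bases, from 250 before to 50 after the start, 40 of the 45 members were matched in the RefSeq promoter table. CCAAT was in 85.0% of them and in 34.6% of the 35073 other promoters. TATAAA was in 70.0% against 11.5%, the octamer in 18 of the 40 against 1.72%, and an E2F-type word in 30.0% against 3.28%. H4C16 held TATAAA in its window of 300 bases, outside the 150 printed, and none of the other words. A match is a description of letters, not of a bound site.

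**Figure D1:**
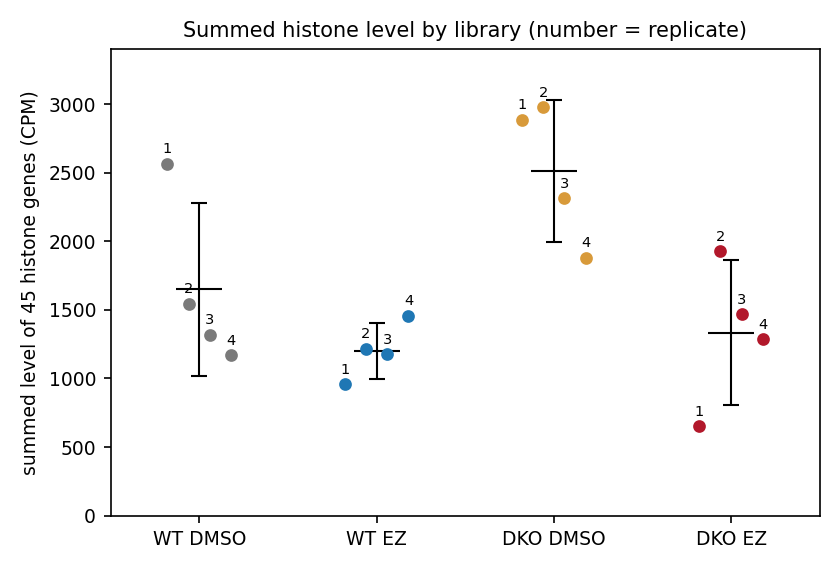
Summed level of the 45 histone genes in CPM (y axis) in each of the 16 libraries, by group (x axis); points are libraries numbered by replicate, long bars are means and whiskers are 1 SD. DKO DMSO runs from 1879 to 2977 CPM, and the lowest library of all is DKO EZ 1 at 653 CPM.

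The 45 genes together took between 0.0715% and 0.325% of the counts of a library, from library totals of 11823438 to 47678648 counts. Levels are CPM, the counts of a gene per 1000000 counts of its library after TMM scaling. WT DMSO libraries 1 to 4 had summed levels of 2566, 1545, 1320 and 1168 CPM (1650 ± 630, SD, n = 4). WT EZ libraries had 958, 1217, 1177 and 1456 CPM (1202 ± 204, SD, n = 4). The 2 groups overlapped. DKO DMSO libraries had 2887, 2977, 2312 and 1879 CPM (2514 ± 515, SD, n = 4). DKO EZ libraries had 653, 1930, 1467 and 1288 CPM (1334 ± 529, SD, n = 4), and only DKO EZ 2 reached into the range of DKO DMSO. In bulk samples such as these, fewer cells in S phase and less histone mRNA per cell cannot be told apart.

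H2B genes made up the largest share, with summed levels from 389 ± 70.4 CPM in WT EZ to 832 ± 225 CPM in DKO DMSO (SD, n = 4 each). H2A genes ranged from 304 ± 53.6 to 634 ± 123 CPM, and H4 genes from 260 ± 95.9 to 497 ± 69.1 CPM. H1 genes ranged from 150 ± 16.4 to 355 ± 83.8 CPM, and H3 genes from 91.5 ± 32.5 to 196 ± 31.2 CPM. In all 5 classes the highest of the 4 group means was that of DKO DMSO.

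By location, 37 members lie in the large cluster on chromosome 6, 7 on chromosome 1 and H4C16 alone on chromosome 12. Per kilobase of annotated exon and averaged over 16 libraries, the most abundant members were H2AC20 (368 CPM per kb), H4C3 (193), H1-2 (181), H3C2 (143) and H2BC12 (115), which led their classes in that order of level. The least abundant were H4C16 (0.38 CPM per kb) and H3C3 (0.54 CPM per kb). The order depends on how far each gene was annotated. H2AC20 had 390 bases of annotated exon, whereas H2BC21 had 2194, and its 111 CPM became 50.6 CPM per kb. For H4C16 the annotated exons covered 2578 bases, beside a RefSeq span of 412. Histone copies are nearly identical in their coding parts. How the authors counted reads that match several copies, and whether they used strand, is not given in the sources used here, so the division of reads among copies, and between overlapping genes, is uncertain. A pseudogene outside the rule, H2BC20P, had a median of 1349 counts.

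Enzalutamide in WT cells was compared with DMSO in WT cells. No member passed edgeR's quasi-likelihood test (0 of 45 at an adjusted p under 0.05), beside 3.32% of all tested genes (2.25% higher and 1.07% lower). At an unadjusted p under 0.05 there were 3 members, all lower in EZ, beside 15.6% of all tested genes in either direction. DESeq2 also called 0 members, beside 5.68% of all tested genes. Fitted log2 changes were below 0 for 44 of 45 members, with a median of −0.49, beside −0.03 for all tested genes. By class the medians were −0.34 for H1, −0.70 for H2A, −0.51 for H2B, −0.63 for H3 and −0.41 for H4. The exception was H3C3 (1.01 ± 0.84, SE), an H3 gene with at most 21 counts in a WT EZ library.

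H2BC21, an H2B gene of the chromosome 1 cluster, was the only member whose WT EZ libraries all lay under its WT DMSO libraries, beside 3.81% of tested genes, and 0 members had the opposite arrangement, beside 5.78%. It stood at 128, 114, 114 and 168 CPM in WT DMSO and at 65.7, 103, 95.4 and 96.7 CPM in WT EZ (log2 change −0.54 ± 0.21, edgeR adjusted p = 0.212). The linker histone gene H1-5 stood at 88.5, 43.2, 33.5 and 2.74 CPM in WT DMSO and at 1.88, 15.7, 17.8 and 14.7 CPM in WT EZ (−1.74 ± 0.90, adjusted p = 0.390). Its groups overlapped because of the lowest WT DMSO library, number 4. The core histone gene H3C2 had the same outline, at 94.8, 62.9, 53.6 and 5.81 CPM in WT DMSO and at 4.71, 37.5, 33.8 and 45.6 CPM in WT EZ (−0.83 ± 0.80, adjusted p = 0.699). H3C13 had the lowest fitted change (−1.82 ± 1.17, adjusted p = 0.509), which rested on WT DMSO 1 at 14.9 CPM, beside 0.166 to 1.39 CPM in the other 7 WT libraries.

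Replicate numbers differed in this comparison. EZ against DMSO of the same number was lower for 42 of 44 members with a value in replicate 1 (median log2 ratio −2.15), 38 of 45 in replicate 2 (−0.38) and 35 of 44 in replicate 3 (−0.16), but for 9 of 45 in replicate 4 (0.84). Only 3 members were lower in all 4 numbers. WT DMSO 4 and WT EZ 1 were the libraries with few histone reads: 36 of 45 members in WT DMSO 4 and 37 of 45 in WT EZ 1 lay below the median of the other 3 libraries of their group, and 20 in each lay below 0.5 of it. The same libraries were lowest in 2 other lists. S phase genes (38 genes) had a mean log2 CPM of 3.62 in WT DMSO 4, beside 4.87 to 5.57 in the other WT DMSO libraries, and of 3.75 in WT EZ 1, beside 4.94 to 5.01. Mitosis genes (30 genes) stood at 3.39 and 2.73 in these libraries, beside 5.15 to 5.86 and 4.95 to 5.04. The part of these lists in the histone levels was not tested.

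**Figure D2:**
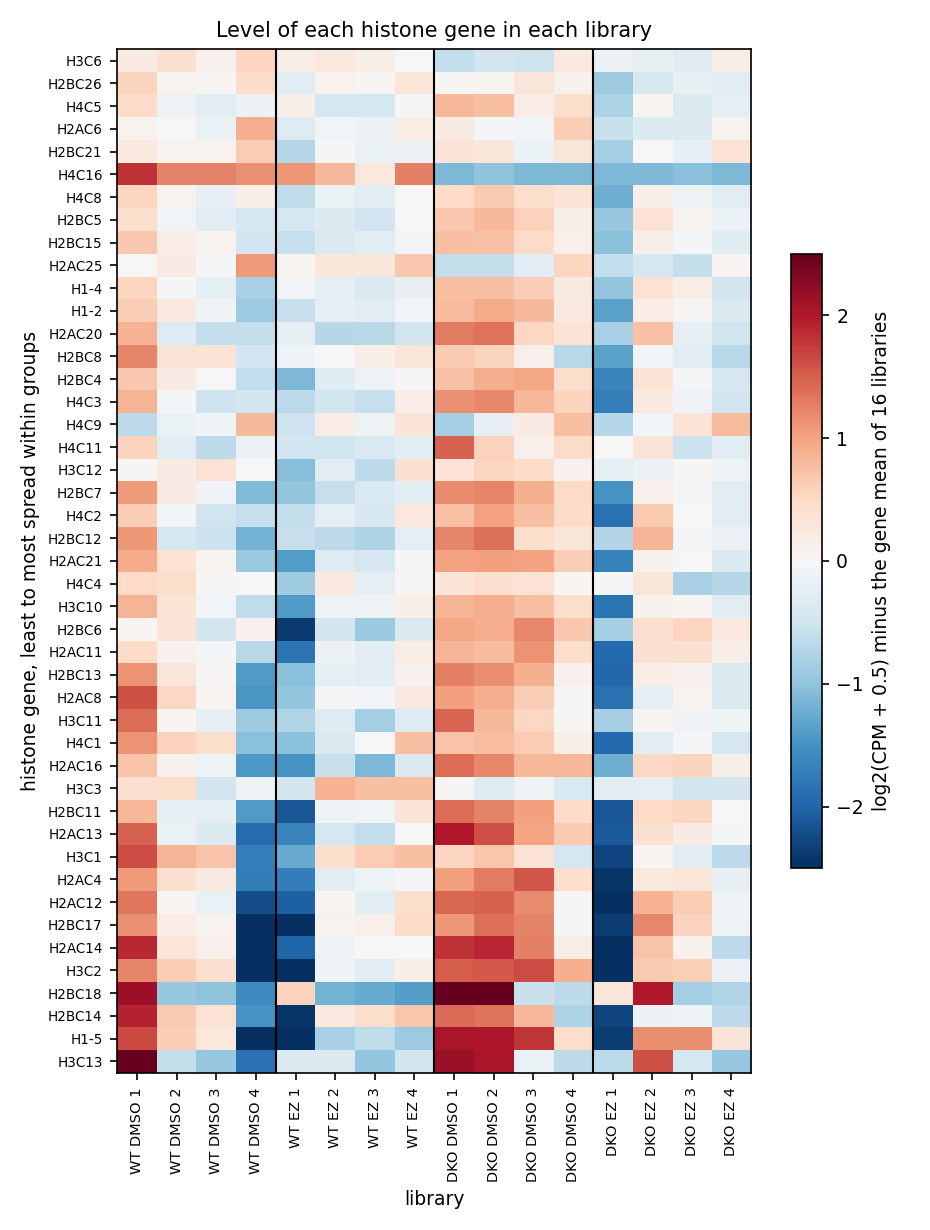
Level of each of the 45 histone genes (rows, ordered from least to most spread between replicates) in each of the 16 libraries (columns), as log2(CPM + 0.5) minus the gene's mean over all libraries; red is above and blue below that mean. WT DMSO 4, WT EZ 1 and DKO EZ 1 are blue over most of the lower rows, and H4C16 is red in the WT and blue in the DKO libraries.

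Enzalutamide in DKO cells was compared with DMSO in DKO cells. H4C5, an H4 gene of the chromosome 6 cluster, fell, and it was the only member called (1 of 45, beside 1.48% of all tested genes, 1.03% higher and 0.445% lower). It stood at 179, 170, 114 and 138 CPM in DKO DMSO and at 58.6, 106, 78.7 and 86.4 CPM in DKO EZ. The groups did not overlap, and the log2 change was −0.87 ± 0.21 (SE, edgeR adjusted p = 0.0448). The call was kept in 10 of 27 alternative analyses and in 3 of 16 that left out 1 library, those without WT DMSO 1, WT EZ 1 or DKO EZ 2, and the adjusted p reached 0.168 without DKO DMSO 2.

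Fitted changes were below 0 for 42 of 45 members in DKO, with a median log2 change of −1.0, beside 0.01 for all tested genes. At an unadjusted p under 0.05 there were 23 members, all lower, beside 13.3% of all tested genes in either direction. DESeq2 called 7 lower, beside 1.29% of all tested genes lower: H1-2, H2AC21, H2BC7, H2BC15, H4C3, H4C5 and H4C8. In 17 members the DKO EZ libraries all lay under the DKO DMSO libraries, beside 4.41% of tested genes, and 0 members had the opposite arrangement, beside 5.2%. By class the medians were −0.99 for H1, −1.12 for H2A, −0.82 for H2B, −1.16 for H3 and −0.89 for H4. The members with changes above 0 were H3C6 (0.20 ± 0.18), H4C9 (0.10 ± 0.38) and H4C16 (0.02 ± 0.93).

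H4C3 stood at 163, 170, 130 and 109 CPM in DKO DMSO and at 22, 87.6, 68.8 and 52.6 CPM in DKO EZ (−1.31 ± 0.38, edgeR adjusted p = 0.108). H1-2, a linker histone gene, stood at 185, 204, 189 and 127 CPM in DKO DMSO and at 41.8, 121, 109 and 83.5 CPM in DKO EZ (−0.99 ± 0.31, adjusted p = 0.144). H2BC4 stood at 137, 156, 162 and 112 CPM and at 25.9, 105, 81.1 and 61.9 CPM (−1.05 ± 0.36, adjusted p = 0.188). In each of these genes every DKO EZ library was under every DKO DMSO library, with DKO EZ 1 the lowest. H3C2 had the same arrangement at 116, 118, 127 and 75.4 CPM against 4.67, 64.1, 61.4 and 36.8 CPM (−1.39 ± 0.81, adjusted p = 0.522), where the distance between DKO EZ libraries was greater than that between the groups. The lowest fitted changes among members of at least 5 CPM were those of H2BC14 (−1.71 ± 0.88, adjusted p = 0.438), H2AC14 (−1.69 ± 0.85, adjusted p = 0.425) and H2AC13 (−1.58 ± 0.67, adjusted p = 0.311). All 3 were lowest in DKO EZ 1, at 0.299, 1.20 and 2.04 CPM.

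The replicate numbers were taken to pair the libraries of 1 genotype. With the number as a block within genotype 4 members fell, beside 3.12% of all tested genes lower and 4.63% higher, themselves above the 0.445% and 1.03% without the block. They were H4C5 (−0.87), H2AC6 (−0.47), H2BC26 (−0.61) and H4C11 (−1.28). H2AC6, an H2A gene known to give polyadenylated mRNA, stood at 111, 94.3, 92.2 and 148 CPM in DKO DMSO and at 65.3, 75.7, 75.8 and 103 CPM in DKO EZ, and each EZ library was under the DMSO library of its number. Over all members, EZ was lower than DMSO of the same number for 42 of 44 in replicate 1 (median log2 ratio −2.53), 40 of 44 in replicate 2 (−0.64), 41 of 43 in replicate 3 (−0.69) and 40 of 43 in replicate 4 (−0.47). In DKO 38 members were lower in all 4 numbers.

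DKO EZ 1 stood low for most members: 39 of 45 lay below the median of the other 3 DKO EZ libraries, and 29 below 0.5 of it. Its S phase genes stood at a mean log2 CPM of 4.35, beside 5.34 to 5.53 in the other 3, and its mitosis genes at 3.60, beside 5.07 to 5.54. When DKO EZ 1, WT EZ 1 and WT DMSO 4 were left out together, H4C5 was not called (−0.75, adjusted p = 0.0891), and H2AC21, another H2A gene, was the only member called (−1.02, adjusted p = 0.0172). The median over all 27 alternatives stayed below 0 in DKO (−1.28 to −0.76) and in WT (−0.68 to −0.13).

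The difference between the drug's effects in the 2 genotypes, tested as an interaction, gave 0 of 45 members, beside 0.0% of all tested genes. At an unadjusted p under 0.05 there was 1 member, H4C5 (−0.69 ± 0.29), beside 2.97% of all tested genes, and DESeq2 called 0. The median difference was −0.47, beside 0.01 for all genes, and 35 of 45 members were below 0. No single member was thus shown to respond to EZ differently in the 2 genotypes.

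**Figure D3:**
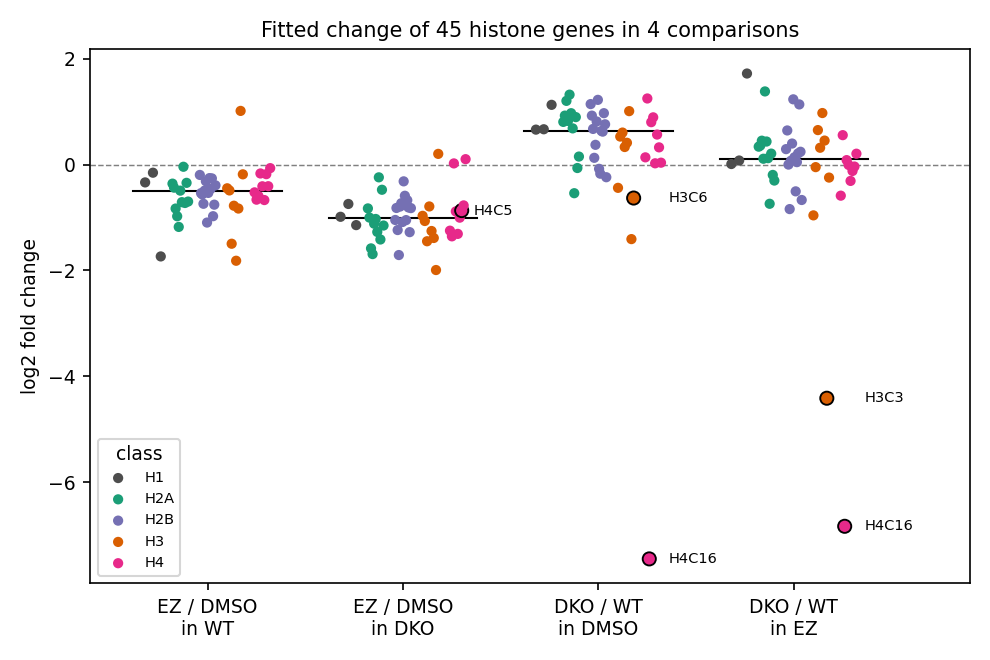
Fitted log2 fold change (y axis) of each of the 45 histone genes in 4 comparisons (x axis), coloured by class; horizontal bars are medians, and larger, outlined and named points passed edgeR's test. The medians are −0.49, −1.0, 0.64 and 0.11 from left to right, and H4C16 lies at −7.45 and −6.84 in the 2 genotype comparisons.

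DKO was compared with WT cells in DMSO, without drug. RB1 mRNA, the check of the knockout, stood at 115 ± 11.3 CPM in WT DMSO and 112 ± 11.2 CPM in WT EZ, and at 10.6 ± 1.15 CPM in DKO DMSO and 11.7 ± 1.67 CPM in DKO EZ (SD, n = 4 each). Among histone genes 2 fell and 0 rose, beside 18.6% of all tested genes called in either direction (8.91% higher and 9.7% lower). They were H4C16 and H3C6. H4C16 met the rule's count minimum through WT libraries alone, so its direction here was favoured by its selection. Most other members stood higher in DKO without passing the test: 36 of 45 had a log2 change above 0, with a median of 0.64, beside −0.06 for all genes. By class the medians were 0.67 for H1, 0.83 for H2A, 0.65 for H2B, 0.37 for H3 and 0.33 for H4. With library totals in place of TMM the medians were 0.84 for the members and 0.14 for all genes. With a replicate block within genotype, which compares the genotypes at the fitted level of replicate 1, the members' median was 0.10.

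H4C16 was the member with the greatest difference between genotypes. It is a single H4 gene on chromosome 12, apart from the clusters, at chr12:14770720-14771131. In WT DMSO it had 64, 99, 36 and 46 counts, and in WT EZ 33, 31, 21 and 70 counts. In DKO DMSO it had 0, 1, 0 and 0 counts and in DKO EZ 0, 0, 1 and 0 counts. Every WT library was far above every DKO library, at 0.811 CPM or more against 0.0425 CPM or less. Per total count the WT level was 230 times the DKO level in DMSO (95% exact interval 40.9 to 9117) and 150 times in EZ (26.6 to 5969), intervals that cover counting error only. The fitted log2 changes were −7.45 ± 0.67 in DMSO (edgeR adjusted p = 5.89e-07) and −6.84 ± 0.69 in EZ (adjusted p = 2.33e-06), and both passed the threshold in 27 of 27 alternatives. Because H4C16 met the count minimum through WT libraries alone, its selection favoured this direction, and these values are given as a description.

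The next gene on the chromosome, H2AJ, had the same outline. H2AJ encodes an H2A that is made outside S phase and is not a member. In GENCODE v29, 3251 bases lie between the starts of H2AJ and H4C16, and the genes run away from each other. H2AJ stood at 2.51, 1.07, 1.86 and 2.20 CPM in WT DMSO and at 2.94, 0.924, 1.00 and 1.90 CPM in WT EZ, and at 0.0722 CPM or less in every DKO library. Its log2 changes were −5.63 ± 0.68 in DMSO (adjusted p = 1.45e-05) and −6.18 ± 0.75 in EZ (adjusted p = 1.69e-05). WBP11, the gene after H2AJ, differed by 0.28 ± 0.11 (adjusted p = 0.106) and −0.06 ± 0.11 (adjusted p = 0.772). In RefSeq, LOC105369669 does not overlap H4C16, but it overlaps the longer GENCODE v29 model of H4C16. Only 1 or no count of H4C16 was seen per DKO library, and the cause of the difference in this pair of genes was not tested.

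**Figure D4:**
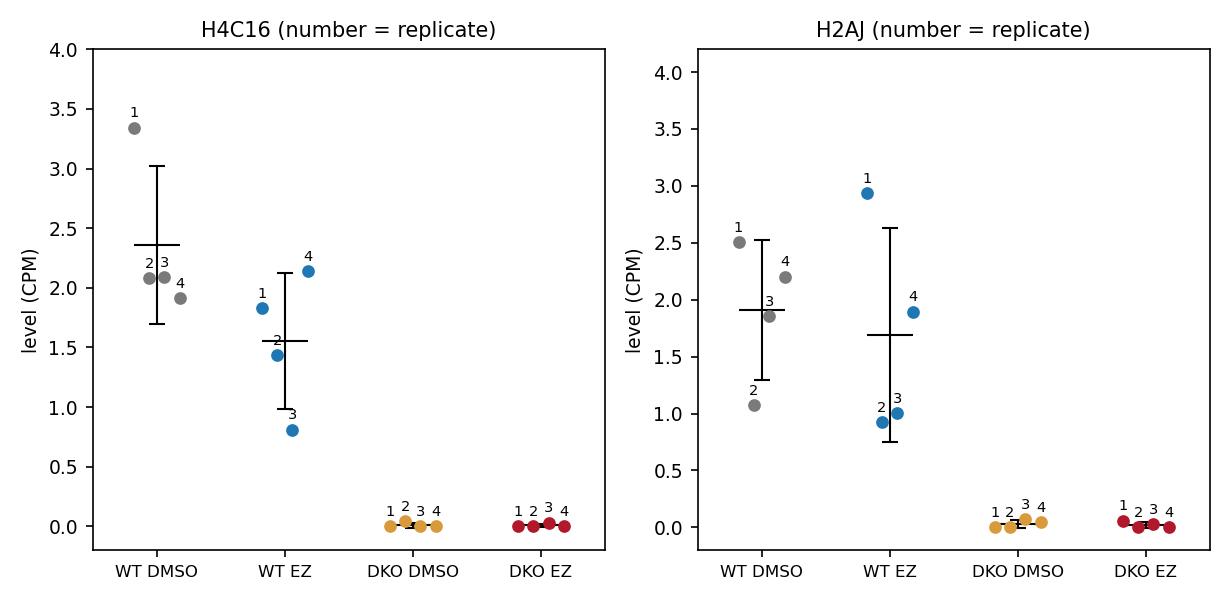
Level in CPM (y axes) of H4C16 (left) and its neighbour H2AJ (right) in each of the 16 libraries by group (x axes); points are libraries numbered by replicate, long bars are means and whiskers are 1 SD. All 8 WT libraries are above all 8 DKO libraries in both genes, and no DKO library passes 0.0722 CPM.

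H3C6, an H3 gene of the chromosome 6 cluster, stood at 24.5, 27.4, 22.3 and 30.5 CPM in WT DMSO and at 13.5, 14.8, 14.3 and 24.7 CPM in DKO DMSO. The groups overlapped through DKO DMSO 4. The log2 change was −0.63 ± 0.18 (edgeR adjusted p = 0.0185), kept in 19 of 27 alternatives. It lost the call with library totals (0.0613), with no filter (0.0509), without WT EZ 1, DKO EZ 1 and WT DMSO 4 together (0.0687), and without any 1 of WT DMSO 2 (0.0593) or 4 (0.0697) or DKO DMSO 1 (0.0881), 2 (0.0871) or 3 (0.0907). In EZ the difference of H3C6 was −0.25 ± 0.18 (adjusted p = 0.381).

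Among the members that stood higher in DKO DMSO, 2 had groups that did not overlap, beside 10.8% of tested genes, and H4C16 alone was lower with no overlap, beside 10.9%. H2BC6 stood at 5.80, 7.23, 3.95 and 6.06 CPM in WT DMSO and at 11.6, 11.0, 13.6 and 9.30 CPM in DKO DMSO (0.97 ± 0.39, adjusted p = 0.0956). H2AC16 stood at 2.82, 1.66, 1.33 and 0.249 CPM and at 4.84, 4.12, 3.10 and 3.09 CPM (1.32 ± 0.57, adjusted p = 0.125). H2AC20, the member with the highest level, stood at 230, 99.7, 82.6 and 83.0 CPM in WT DMSO and at 311, 323, 180 and 156 CPM in DKO DMSO (0.97 ± 0.38, adjusted p = 0.0958). WT DMSO 1 was its only WT DMSO library above 100 CPM. Without WT DMSO 1, 9 members were called higher and 2 lower, beside 8.54% of all tested genes higher and 6.92% lower, with H2BC12 (1.66, adjusted p = 0.0053) and H2AC20 (1.51, adjusted p = 0.00756) among the higher ones.

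DKO was also compared with WT cells under EZ. Here 2 members fell and 0 rose, beside 20.7% of all tested genes (9.29% higher and 11.4% lower): H4C16 and H3C3. These 2 were the members with 10 counts in no DKO library, and both met the rule's count minimum through WT libraries alone. The rule thus favoured a lower level in DKO for both, and their count is given as a description. H3C3 had 0, 16, 17 and 21 counts in WT EZ and 1, 1, 0 and 0 counts in DKO EZ. The log2 change was −4.42 ± 1.21 (edgeR adjusted p = 0.0143), and the ratio of the WT to the DKO level per total count was 26.2 (95% exact interval 6.90 to 222). The call was lost without DKO EZ 3 (0.0652) or 4 (0.0664). It was also lost with a replicate block within genotype (0.349), which compares the genotypes at the fitted level of replicate 1. In that replicate H3C3 had 0 counts in WT EZ and 1 in DKO EZ. At such counts the number of reads limits the value, and H3C3 is known to encode the same protein as other H3 genes of the cluster.

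Over all members under EZ, the median log2 change was 0.11, beside −0.01 for all genes, with 28 of 45 above 0. With a replicate block within genotype, which compares the genotypes at the fitted level of replicate 1, the median was −0.59. In the other 26 alternatives it ran from −0.06 to 0.37. By class the medians were 0.08 for H1, 0.21 for H2A, 0.17 for H2B, 0.13 for H3 and −0.04 for H4. The highest fitted change was that of H1-5 (1.72 ± 0.90, adjusted p = 0.213). H2AC25, an H2A gene of chromosome 1, was the only member besides H4C16 whose DKO EZ libraries all lay under its WT EZ libraries, beside 13.4% of tested genes, and 0 members had the opposite arrangement, beside 10.6%. It stood at 19.7, 23.3, 23.1 and 30.5 CPM in WT EZ and at 12.2, 13.7, 12.3 and 19.5 CPM in DKO EZ (−0.74 ± 0.28, adjusted p = 0.0773). With a replicate block within genotype, a comparison at the fitted level of replicate 1, H2AC25 (−0.76, adjusted p = 0.0181) and H2BC26 (−0.80, adjusted p = 0.0470) were called lower beside H4C16. H3C3 was not called there, and 3932 of 21810 tested genes were called lower. H2BC6 differed by 1.14 ± 0.40 (adjusted p = 0.0527), and 11 of 27 alternatives called it higher.

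Histone genes differed widely in how much they varied between replicates. The SD of log2 level within groups, pooled over the 4 groups, had a median of 0.66 over the 45 members, beside 0.35 for all tested genes and 0.23 for tested genes in the middle range of the members' levels. The most variable members were H3C13 (1.64), H1-5 (1.62), H2BC14 (1.57) and H2BC18 (1.50). The least variable were H3C6 (0.25), H2BC26 (0.26), H4C5 (0.32), H2AC6 (0.34) and H2BC21 (0.34). The 6 genes listed as able to give polyadenylated mRNA (H1-2, H2AC6, H2BC4, H2BC5, H2BC12 and H2BC21) had a median of 0.45.

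Annotated exon length went with this spread. That length is taken from the GENCODE v29 models, which hold only the coding sequence for many histone genes. For others they run well past the RefSeq span, as for H4C5 (1487 bases against 412). It thus reflects how far a gene was annotated and is not a measure of mRNA length. The 10 least variable members all had at least 800 bases of annotated exon, a limit set after the values were seen, whereas 9 of the 10 most variable had fewer. H4C16 was among the 10 least variable (SD 0.37), but it had at most 1 count in a DKO library, where its values lay at the floor. It also enters the medians of the longer members given next. The median SD was 0.43 over the 19 longer members and 0.89 over the 26 shorter ones. Spearman's rho across the 45 genes was −0.54. It is a description, since the genes share libraries and depth. Of the 23 members with an annotated stem-loop, 16 had a transcript that ran on for at least 200 bases past it, with a median SD of 0.41, and 7 did not, with 0.65.

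**Figure D5:**
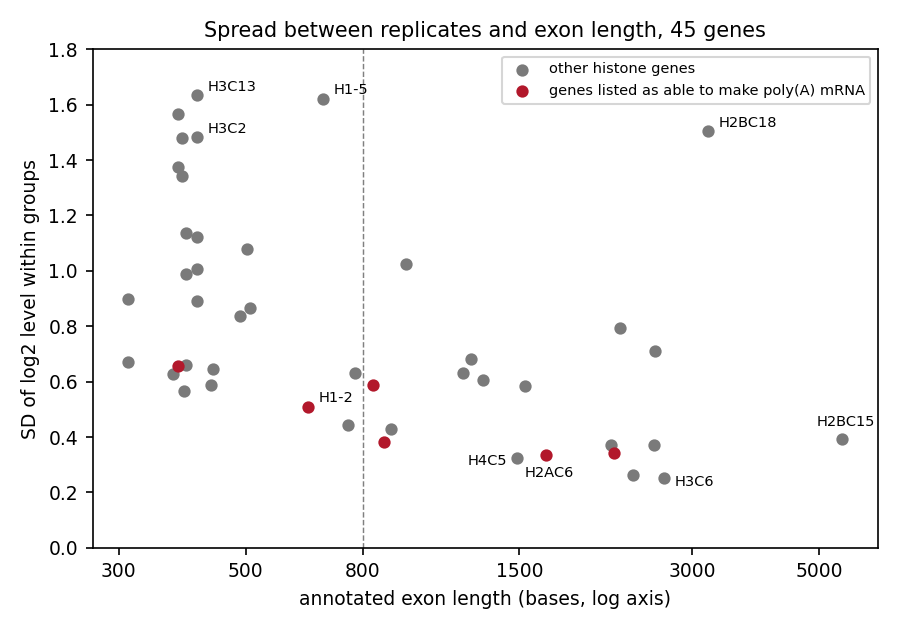
SD of log2 level within groups (y axis) against annotated exon length in bases (x axis, log scale) for the 45 histone genes; red points are the 6 genes listed as able to make poly(A) mRNA, and the dashed line marks 800 bases. Longer genes sit mostly low, from 0.25 upward, and H2BC18 is the long gene with a high SD of 1.50.

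The low libraries are among those that make up the SD within groups. Their values by annotated length therefore describe the same spread library by library and are no separate support. In WT DMSO 4 the longer members stood at a median of 0.91 of the median of the other 3 libraries, and the shorter ones at 0.26. In WT EZ 1 the values were 0.75 and 0.40, and in DKO EZ 1 they were 0.48 and 0.26. Some longer members were highest in WT DMSO 4. H2AC6 stood at 182 CPM there and at 86.1 to 103 CPM in the other WT DMSO libraries. H4C9 stood at 19.1 CPM, beside 6.63 to 9.87 CPM, and H2AC25 at 39.9 CPM, beside 18.6 to 21.9 CPM.

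H2BC18 and H3C13, both in the chromosome 1 cluster, followed another division of the libraries. In 6 libraries, WT DMSO 1, WT EZ 1, DKO DMSO 1 and 2, and DKO EZ 1 and 2, the structural RNA RN7SL1 was above 1500 CPM of unscaled totals. H2BC18 stood at 39.8 to 201 CPM in these 6 and at 10.3 to 21.8 CPM in the other 10, and it was the only member with no overlap between the sets. H3C13 had a median of 8.13 CPM in the 6 and 1.08 CPM in the 10, though the ranges overlapped. H2BC12 (ratio of medians 2.47) and H2AC20 (2.43) were also higher in the 6, and H4C9 (0.54) and H2AC25 (0.58) lower. The labels give no batch that names these libraries, and the part of RN7SL1 in the histone values was not tested.

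Group differences within each set of libraries are given by their medians over members with a value. EZ against DMSO in WT was −2.15 in the high set, which held 1 library of each group, and −0.03 in the other. EZ against DMSO in DKO was −1.23 in the high set and −0.56 in the other, and lower for 41 of 44 and 40 of 43 members. DKO against WT was 0.11 and 0.77 in DMSO, and 0.79 and 0.03 in EZ. In WT the other set held numbers 2 to 4, in which, as given above, EZ was lower for most members in numbers 2 and 3 and for 9 of 45 in number 4.

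Factors that make and process histone mRNA showed no call under the drug. Of 24 such genes, 0 were called under EZ in either genotype, with medians of 0.10 in WT and −0.05 in DKO. SLBP, the stem-loop binding protein, differed by −0.10 ± 0.15 under EZ in WT, −0.09 ± 0.15 under EZ in DKO and 0.19 ± 0.15 between genotypes in DMSO (adjusted p = 0.820, 0.895 and 0.420). NPAT, the transcription coactivator of histone clusters, differed by 0.20 ± 0.09, 0.22 ± 0.09 and 0.15 ± 0.09 (adjusted p = 0.265, 0.271 and 0.266). Between genotypes in DMSO 4 of the 24 rose: CCNE2, a cyclin E gene (1.38), CDK2, its kinase (1.03), ERI1, an exonuclease that trims histone mRNA ends (0.54), and CASP8AP2, a histone locus body protein (0.43). CPSF2 (−0.35), of the 3′ cleavage complex, and TUT7 (−0.32), a uridylyltransferase, fell. Under EZ, CCNE2, ERI1 and CASP8AP2 rose and SYMPK and UPF1 fell. For this list and those below, 8.91% of all tested genes were called higher and 9.7% lower in DKO against WT in DMSO. In EZ the shares were 9.29% and 11.4%. Counts near these shares are not particular to a list.

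Of 11 replication-independent histone variants tested, 0 were called under EZ in either genotype. Among those that rose in DKO in DMSO were H1-10 (0.36), MACROH2A2 (0.77) and the centromeric H3 gene CENPA (1.40), and H2AJ fell. Under EZ only H2AJ was called. Of 20 histone chaperone genes, 5 rose in DKO in DMSO, among them NASP (1.06), an H3 and H4 chaperone, and CHAF1B (0.88), a subunit of the chromatin assembly factor CAF-1, and ATRX fell (−0.47). Under EZ 4 rose and 1, NAP1L1, fell. NAP1L1, an H2A and H2B chaperone, also fell under EZ in DKO (−0.58).

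S phase genes were called only between genotypes. In DKO against WT in DMSO, 7 of 38 rose and 0 fell, with a median of 0.66, and under EZ 5 rose. The primase gene PRIM1 (1.52) and the helicase gene MCM6 (1.06) were among those that rose in DMSO. With EZ 0 of 38 were called in either genotype, with medians of −0.13 in WT and −0.29 in DKO. Of 30 mitosis genes 0 were called in any of the 4 comparisons, with medians of −0.51 and −0.83 under EZ and 0.76 and 0.40 in DKO.

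Markers of the line were present. Of 10 LNCaP markers 0 were called under EZ and 5 fell in DKO in each comparison with WT, among them the androgen-induced KLK3 (−3.48 in DMSO) and TMPRSS2 (−3.22). Of the markers of other cell types, CD3E was at 0 in all libraries, and PTPRC, PECAM1, TP63 and KRT5 did not exceed 0.361 CPM. COL1A1, a collagen gene of fibroblasts, was at 13.9 to 43.7 CPM and rose in DKO (0.92 in DMSO and 1.12 in EZ). Of the 12 markers of leukocytes, endothelium, fibroblasts and basal cells 4 were tested. VWF fell under EZ in WT (−1.29) and KRT14 was lower in DKO EZ than in WT EZ (−3.17). The summed level of these 4 was 28.3 to 38.2 CPM in WT DMSO, 23.3 to 26.5 in WT EZ, 37.5 to 52.9 in DKO DMSO and 40.1 to 50.4 in DKO EZ. Of 19 structural RNAs without a poly(A) tail 6 were tested and 0 called, with medians of 0.50 and −0.54 under EZ and 1.01 and −0.18 in DKO. The part of these markers and RNAs in the histone values was not tested.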

How the data were processed

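Total RNA of LNCaP cells was sequenced after ribosomal RNA removal, in 16 libraries of 4 groups. The authors deposited raw counts per gene, 1 file a library. Alignment used STAR 2.7.3a and build GRCh38, per the submitters' processing notes. For the counter, annotation and strand setting, the tool and options were not given in the sources used here. Gene identifiers were named from RefSeq and GENCODE v29 tables, which gave a symbol for 60359 of 60676 rows.

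Counts of all 16 libraries were fitted together by group in edgeR 4.0.16 (R 4.3.3, limma 3.58.1), with TMM scaling, filterByExpr (minimum count 10, minimum total 15), robust quasi-likelihood tests and Benjamini-Hochberg adjustment over 21810 genes, at a threshold of 0.05. Levels are CPM (counts per 1000000 after TMM). SDs within groups use log2(CPM + 0.1). Library totals were 11823438 to 47678648 counts, and no pair of replicates agreed within counting noise (chi-square per degree of freedom 5.37 to 104).

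Named members were those past the threshold, the 3 highest and 3 lowest changes per comparison at 5 CPM or more, the most abundant gene per kilobase in each class, and 6 genes able to give polyadenylated mRNA, of which 0 were called (medians −0.40, −0.75, 0.63 and 0.09 in the 4 comparisons). Any other member named was chosen after its values were seen. The members and lists were chosen with earlier results of these data known.

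Replicate numbers come from the sample titles. Deviations from group means correlated between same-numbered libraries at 0.33 to 0.62 in WT and 0.40 to 0.66 in DKO, so the numbers were taken to pair libraries within a genotype. Across genotypes the correlations of same-numbered libraries ran from −0.13 to 0.67, and those of replicate 4 from 0.40 to 0.67. WT DMSO 2 correlated best with WT EZ 3, so the pairing is an assumption. The alternatives were other scalings, DESeq2 1.42.0, other filters, a replicate block, a term for libraries high in RN7SL1, and leaving out libraries. On simulated counts for EZ against DMSO in WT (21159 genes) the fit recovered 45% of 2-fold and 100% of 4-fold changes, with 7 false calls. The simulation gave every gene the same dispersion, drew the libraries independently and placed changes only in well-counted genes. Members varied more between replicates (median SD of log2 level 0.66, beside 0.35 for all tested genes), so these rates do not describe the histone genes. Intervals cover counting error only. Some items of the gene lists are not reported here.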

Additional observations from a re-analysis of the deposited data

Results flagged for a closer look

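In groups of 4, a library was set apart where its gap to the nearest other, as a share of the group's range, passed Dixon's 95% critical value. This held in 17 of 128 groups checked, where chance flags about 1 in 20 of independent groups. These groups share libraries, and the summed classes contain the single genes, so the tally is no test against that share. The flags of H4C16 in DKO rest on 1 count each. WT DMSO 1 accounts for 6 of them.

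In WT DMSO 1, H2AC20 stood at 229.9 CPM (others 82.6 to 99.7), H2BC18 at 144 CPM (10.3 to 16.5), H3C13 at 14.9 CPM (0.166 to 1.11), H4C16 at 3.34 CPM (1.91 to 2.09), H4C5 at 140.5 CPM (82.6 to 92.2), and the summed H2A genes at 646 CPM (314 to 368). All 6 were above the other WT DMSO libraries. H2AC25 stood at 39.9 CPM in WT DMSO 4 (18.6 to 21.9).

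In WT EZ 1, H2BC18 stood at 48.2 CPM (others 12.1 to 13.9), whereas H2AC14 stood at 2.99 CPM (12.7 to 13.6) and H3C3 at 0 CPM (0.642 to 0.739). The summed H4 genes stood at 334.5 CPM in WT EZ 4 (237 to 251).

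In DKO DMSO 4, H3C6 stood at 24.7 CPM (others 13.5 to 14.8) and the summed H3 genes at 149 CPM (207 to 215). H2BC21 stood at 96.5 CPM in DKO DMSO 3 (131 to 136), and H3C13 at 6.78 CPM in DKO EZ 2 (0.755 to 1.30). H4C16 had its only DKO counts in DKO DMSO 2 (0.0425 CPM) and DKO EZ 3 (0.0295 CPM), 1 count each, beside 0 in the others.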

How the results depend on the processing

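Counts of members called are given with the share of all tested genes called by the same fit. No member was called under EZ in WT or in the interaction under any of 27 alternatives. No value that was called in either fit changed sign. Values that were not called did. The median of DKO against WT in EZ, 0.11, was below 0 in 3 of the 27 alternatives, among them the replicate block within genotype. In that comparison 30 of 45 members changed sign in 1 alternative or more, and in DKO against WT in DMSO 13 did. Both counts include that block, which compares the genotypes at replicate 1. Under EZ 18 changed sign in WT and 3 in DKO, and 12 did in the interaction. Under EZ in DKO, 1 member was called lower (1.48%), against 0 with RLE size factors (1.21%), 0 with no filter (0.355%), 0 with both EZ libraries numbered 1 left out (0.998%), and 7 with DESeq2 (3.7%). Leaving out 1 library gave 0 to 1 (0.323% to 2.02%). In DKO against WT in DMSO, 2 were called (18.6%), against 4 with upper-quartile scaling (19.6%), 7 with library totals (20.9%, with 16.0% higher beside 8.91% under TMM), 4 with DESeq2 (20.9%), 1 with no filter (6.55%), 4 with the RN7SL1 term (20.4%), 7 with both EZ libraries numbered 1 left out (19.4%), and 1 to 11 when 1 library was left out (13.1% to 18.5%), the 11 being without WT DMSO 1 (15.5%). In DKO against WT in EZ, 2 were called (20.7%), against 1 to 4 when 1 library was left out (14.6% to 21.3%). An alternative chosen after seeing the data left out WT EZ 1, DKO EZ 1 and WT DMSO 4 together, and gave 4 calls in DMSO (4484 of 22410 genes) and 5 in EZ (18.5%). The cause of these shifts was not tested.

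With the replicate number as a block across genotypes, 2 members were called under EZ in DKO (5.06%), 5 in DKO against WT in DMSO (26.9%) and 5 in EZ (29.4%). With the block within genotype, 4 were called under EZ in DKO (7.75%). Between genotypes that fit compares only the fitted levels at replicate 1, and it gave 2 calls in DMSO (21.4%) and 3 in EZ (30.8%). The median of DKO against WT was then 0.10 in DMSO and −0.59 in EZ. The median of the interaction was −0.93 without WT DMSO 1.

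H3C3 and H4C16 rest on few counts, and H3C3 could not be tested in 2 of the alternatives. Histone copies with shared reads limit every single-gene value.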
